A study of Mus musculus with 64 samples.

Results

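The 10 genes followed here are targets of the transcription factor p53 and inhibitors of the cell cycle: *Cdkn1a*, *Cdkn2a*, *Cdkn2b*, *Mdm2*, *Ccng1*, *Bax*, *Bbc3*, *Phlda3*, *Eda2r* and *Sesn1*. They were taken by symbol, and they are 10 of the 52636 genes in the table of counts. Of these, 9 had enough reads for testing and *Cdkn2a* did not. p53 is a sequence-specific transcription factor that is stabilized when DNA is damaged or a cell is otherwise stressed, and it then switches on genes that halt division, repair damage, change metabolism or start apoptosis. Its protein is held low by the ubiquitin ligase encoded by *Mdm2*, which is itself a target of p53, so that the response limits itself. Senescence is a lasting halt of division with secretion of cytokines and proteases. It is commonly recognised by the cyclin-dependent kinase inhibitors of the *Cdkn1a* and *Cdkn2a* genes, and in adipose tissue it is known from obesity and aging.

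The samples are RNA of 2 fat depots of male mice aged 2 to 4 months, brown adipose tissue (BAT) and the white adipose tissue around the epididymis (eWAT). FANKO mice carried the floxed *Nampt* allele (*Nampt*tm1Jtree) and Adiponectin-Cre, which deletes *Nampt*, the rate-limiting enzyme of NAD+ salvage, in adipocytes and not in the other cells of the depot. The controls, called WT, were littermates without Cre. All groups were kept at room temperature with lights on from 6 am to 6 pm. The study used chow and a high-fat diet, and the labels of these samples name no diet. Tissue was collected at 4 zeitgeber times (ZT, hours after lights on), ZT 6 and ZT 10 in the light phase and ZT 18 and ZT 22 in the dark phase. Each combination of depot, genotype and time had 4 samples, which gave 16 groups and 64 samples.

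Expression is given as CPM, the read pairs of a gene relative to the library total after scaling by edgeR's TMM method. Differences are log2 fold changes of FANKO against WT with their standard errors (SE). A member is called changed when its P value, after Benjamini-Hochberg adjustment across the 20249 genes tested, is below a false discovery rate of 0.01. Total counts ranged from 6117343 to 30544847 per sample (median 15826651). The share of mitochondrial-genome reads had a median of 24.6% for WT and 14.7% for FANKO samples of BAT, and of 6.55% and 10.7% for those of eWAT. *Nampt* itself had a median of 702 CPM in WT BAT and 143 CPM in FANKO BAT (log2 fold change -2.31), and of 149.5 CPM in WT eWAT and 114 CPM in FANKO eWAT (-0.50). *Ucp1*, the thermogenic protein that defines brown fat, had a median of 4305 CPM in WT BAT and 0.21 CPM in WT eWAT, and *Adipoq*, the adipocyte hormone adiponectin, had a median of 941 CPM and 2370 CPM.

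p53 binds DNA as a tetramer at pairs of a short palindromic half-site. The 250 bases upstream of each RefSeq transcription start (build GRCm38.p6) were searched for this half-site, which reads alike on either strand, and all 10 members had at least 1 entry. The half-site was found in 7.13% of the 32851 windows of all genes and in 5 of the 15 windows of the members, belonging to *Cdkn1a*, *Mdm2*, *Ccng1*, *Bax* and *Sesn1*. The stretches around these matches are shown because they carry the motif of the factor by which most of these genes were chosen. They are printed 5′ to 3′ along the strand of the gene, with the half-site in capitals:
Cdkn1a: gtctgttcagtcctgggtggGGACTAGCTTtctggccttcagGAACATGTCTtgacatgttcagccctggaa
Mdm2: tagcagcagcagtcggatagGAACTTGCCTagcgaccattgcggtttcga
Ccng1: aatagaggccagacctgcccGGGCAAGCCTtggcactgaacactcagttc
Bax: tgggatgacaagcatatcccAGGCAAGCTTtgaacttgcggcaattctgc
Sesn1: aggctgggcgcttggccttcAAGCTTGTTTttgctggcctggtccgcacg

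The *Cdkn1a* stretch lies at chr17:29090886-29090957 on the forward strand, upstream of the start at 29090979, and its second match, 51 to 42 bases before that start, is followed at once by 10 bases that differ from the half-site pattern at 1 base. The *Mdm2* stretch lies at chr10:117710915-117710964 and the *Ccng1* stretch at chr11:40755442-40755491, both on the reverse strand and outside any annotated gene. The *Bax* stretch at chr7:45467070-45467119 on the reverse strand lies in the body of the overlapping gene *Gm45808*, and the *Sesn1* stretch at chr10:41887246-41887295 on the forward strand lies in an intron of *Sesn1*, upstream of its start at 41887439. None of the 5 stretches overlaps an exon. The E-box CACGTG, to which the circadian transcription factors CLOCK and BMAL1 bind, was found in 6.02% of all windows and in the windows of *Bax*, 9 to 4 bases before its start, and of *Bbc3*, 64 to 59 bases before its start at 16310431. A match of letters is a description of the sequence, and no binding was measured in these samples.

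In WT mice the members differed widely in abundance. Per kilobase of exon, the mean level in WT BAT was 202 CPM for *Phlda3*, which encodes a pleckstrin-homology protein that restrains AKT, and 97.1 CPM for *Ccng1*, which encodes the atypical cyclin G1. *Mdm2* followed at 8.44 CPM per kilobase, *Cdkn1a* at 8.18, *Sesn1* at 6.60 and *Bax* at 5.34. *Bbc3* stood at 2.67 CPM per kilobase, *Cdkn2b* at 1.42, *Eda2r* at 0.24 and *Cdkn2a* at 0.013. In WT eWAT *Phlda3* (122 CPM per kilobase) and *Ccng1* (59.2) were again the most abundant, followed by *Sesn1* (12.2), *Cdkn2b* (7.99), *Mdm2* (7.38), *Bax* (6.58), *Bbc3* (3.32), *Cdkn1a* (2.90), *Eda2r* (0.89) and *Cdkn2a* (0.12).

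The depots of WT mice differed in 8 of the 9 tested members, with 4 higher in BAT (32.7% of all genes tested were called higher in BAT) and 4 lower (41.1% of all genes). *Cdkn1a* was 2.52-fold higher in BAT than in eWAT (log2 difference 1.33, SE 0.17, adjusted P = 4.83e-10). *Cdkn2b* was 6.01-fold lower in BAT (log2 difference -2.59, SE 0.12, adjusted P = 1.04e-27), *Eda2r* was 3.63-fold lower (-1.86, SE 0.12, adjusted P = 2.1e-21) and *Sesn1* 1.87-fold lower (-0.90, SE 0.06, adjusted P = 2.47e-19). These 4 genes and *Bax* (-0.30) kept their direction when counts were divided by library size alone, a scaling that moved the median log2 difference of all genes between the depots to -0.86, whereas *Ccng1* (0.72), *Phlda3* (0.70) and *Mdm2* (0.20), higher in BAT with TMM, came to -0.01, -0.04 and -0.55 under it. With that scaling 1 member was called higher in BAT and 6 lower, as were 2363 and 14884 of the 20249 genes tested. *Bbc3* did not pass the threshold (-0.30, SE 0.12, adjusted P = 0.0258).

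In FANKO BAT, 5 of the 9 tested members were higher than in WT BAT (33.1% of all genes tested were called higher) and 2 were lower (33.9%). *Eda2r*, *Cdkn2b*, *Bax*, *Cdkn1a* and *Mdm2* were 3.83-, 2.38-, 2.19-, 2.13- and 1.56-fold higher, *Bbc3* and *Ccng1* were 1.55- and 1.39-fold lower, and *Phlda3* and *Sesn1* did not differ at the threshold. In FANKO eWAT, 5 members were also higher (27.6% of all genes) and 2 lower (22.8%), but only in part the ones of BAT. *Cdkn1a*, *Phlda3*, *Bax* and *Mdm2* were 2.12-, 1.90-, 1.46- and 1.34-fold higher, *Ccng1* was higher too, *Sesn1* was 1.41-fold lower, and *Bbc3* was lower. The median log2 fold change over the 9 members was 0.64 in BAT and 0.26 in eWAT, against 9.69e-05 and -0.02 over all genes tested. Scaling by library size alone raised the median of all genes to 0.58 in BAT and lowered it to -0.27 in eWAT, and then 7 members were higher and 0 lower in BAT, and 3 higher and 3 lower in eWAT. Of the 20249 genes tested, 12785 were then higher and 2274 lower in BAT, and 2389 higher and 8592 lower in eWAT. Because whole tissue was sequenced, fewer cells of a type and less RNA per cell cannot be told apart in these values.

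**Figure D1:**
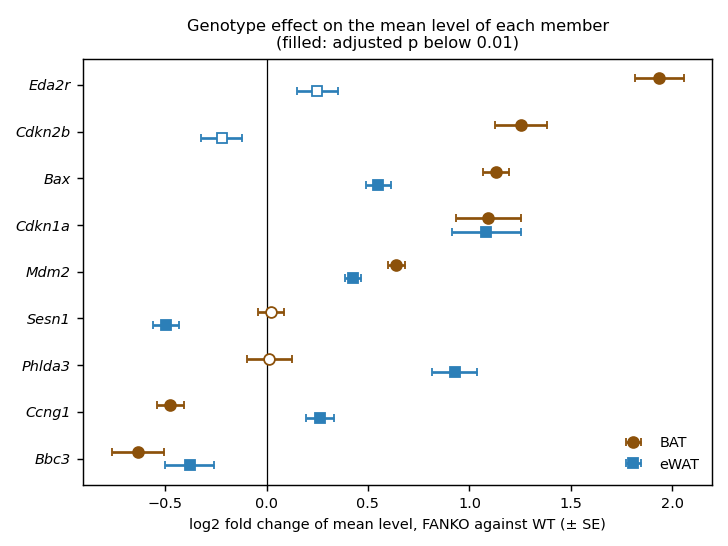
Log2 fold change of the mean level in FANKO against WT mice for the 9 tested members in BAT and in eWAT, with bars for the standard error and filled symbols where the adjusted P value was below 0.01. *Cdkn1a*, *Mdm2* and *Bax* lay above 0 with filled symbols in both depots, *Bbc3* lay below 0 in both, and *Ccng1* had opposite signs.

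Marker genes of cell types also differed in level with genotype, which does not tell cell number from RNA per cell. Of all genes tested, 33.1% were called higher and 33.9% lower in FANKO BAT, and 27.6% and 22.8% in FANKO eWAT. In BAT the summed level of 6 T cell markers was 1.37 to 4.00 CPM in the WT and 39.2 to 126 CPM in the FANKO samples (6 of 6 called higher). That of 5 B cell markers was 4.75 to 11.6 and 149 to 1507 CPM (5 of 5 higher), and that of 6 macrophage markers 60.1 to 118 and 257 to 599 CPM (5 higher, *Cd14* lower). Adipocyte markers summed to 10420 to 13570 CPM in WT BAT and to 4794 to 8358 CPM in FANKO BAT (6 of 6 lower, 3 of them with library size scaling), and 6 fibroblast markers to 411 to 1184 and 1203 to 2189 CPM (6 of 6 higher). In eWAT the T cell markers summed to 2.59 to 7.82 CPM in WT and 7.18 to 20.9 CPM in FANKO samples (5 of 6 higher). There the macrophage markers summed to 355 to 500 and 331 to 556 CPM (2 higher, 1 lower, or 1 and 4 with library size scaling), and fibroblast markers to 2300 to 4139 and 1363 to 1991 CPM (6 of 6 lower). Of the 6 adipocyte markers in eWAT, 1 was higher, 3 were lower and 2 were not called. Of 5 brown adipocyte markers, 3 were lower in FANKO BAT. In eWAT *Cidea* (3.03) and *Cox7a1* (1.24) were higher and *Dio2* lower, and the sum of the 5 was 10.6 to 27.5 CPM in WT and 39.02 to 83.1 CPM in FANKO samples. Of 5 endothelial markers in BAT, 3 were lower with TMM and 0 with library size scaling, where 1 was higher. In eWAT 1 of the 5 was lower with TMM and 4 with library size scaling. No skeletal muscle marker of 6 was called in BAT by edgeR, and their sum ran from 0.53 to 421 CPM in WT BAT and from 2.64 to 376 CPM in FANKO BAT. No epididymis marker of the 4 tested was called in either depot, and their sum in eWAT ran from 0.73 to 17.9 CPM in WT and from 0.57 to 28.4 CPM in FANKO mice. Of 4 mesothelial markers, 4 were lower in FANKO eWAT, as were 4 of 5 B cell markers. The part of these shifts in the levels of the 10 genes was not tested.

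*Cdkn1a* encodes p21, the inhibitor of cyclin-dependent kinases by which p53 halts the cell cycle. Its gene (ENSMUSG00000023067) spans chr17:29090976-29100727 on the forward strand of GRCm38, and 273 bases of its exons are shared with *AC167363.2* on the opposite strand. Over the 16 samples of each group its level ran from 5.23 to 143 CPM in WT BAT (median 18.1), from 30.4 to 54.7 CPM in FANKO BAT (median 49.4), from 2.46 to 25.3 CPM in WT eWAT (median 8.05) and from 8.42 to 28.8 CPM in FANKO eWAT (median 18.3). FANKO and WT samples therefore overlapped in both depots over the whole day. The mean level was higher in FANKO mice by a log2 fold change of 1.09 in BAT (SE 0.16, adjusted P = 1.83e-08) and of 1.08 in eWAT (SE 0.17, adjusted P = 1.54e-07), and these effects differed between the depots by 0.01 (95% interval -0.47 to 0.49, adjusted P = 0.985).

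At ZT 6 the 4 WT BAT samples had 5.23, 6.45, 8.36 and 12.6 CPM of *Cdkn1a*, and the 4 FANKO BAT samples had 36.4, 38.3, 39.5 and 50.1 CPM. At ZT 10 the WT samples had 7.48, 10.6, 11.4 and 11.7 CPM and the FANKO samples 30.4, 35.7, 38.02 and 50.7 CPM. All FANKO samples were thus above all WT samples at both light-phase times, 5.09-fold at ZT 6 (log2 fold change 2.35, adjusted P = 5.78e-08) and 3.71-fold at ZT 10 (1.89, adjusted P = 4.11e-06). At ZT 18 the WT samples had 23.5, 35.1, 40.3 and 143 CPM and the FANKO samples 31.8, 51.2, 52.6 and 53.5 CPM. At ZT 22 the WT samples had 32.5, 34.6, 41.0 and 41.1 CPM and the FANKO samples 48.7, 50.6, 52.7 and 54.7 CPM. The dark-phase differences did not pass the threshold, with -0.34 at ZT 18 (adjusted P = 0.364) and 0.48 at ZT 22 (adjusted P = 0.198), although no samples overlapped at ZT 22. The WT sample at 143 CPM also had the highest sum of skeletal muscle markers of any BAT sample (421 CPM). Without it the ZT 18 difference was 0.52 (adjusted P = 0.0955) and the mean difference in BAT 1.297 (adjusted P = 3.31e-13).

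In eWAT the same times of day stood out for *Cdkn1a*. The WT samples had 4.37, 5.18, 8.06 and 9.29 CPM at ZT 6 and 2.46, 2.99, 3.50 and 3.76 CPM at ZT 10, against 13.9, 17.1, 24.5 and 26.6 CPM and 8.42, 14.2, 17.9 and 22.8 CPM in FANKO eWAT. Again every FANKO sample exceeded every WT sample in the light phase, 3.13-fold at ZT 6 (log2 fold change 1.65, adjusted P = 0.000122) and 4.86-fold at ZT 10 (2.28, adjusted P = 2.73e-06). At ZT 18 the WT samples had 7.26, 8.04, 13.5 and 15.2 CPM and the FANKO samples 9.43, 9.89, 10.05 and 18.8 CPM, and at ZT 22 the values were 13.6, 17.8, 24.4 and 25.3 CPM against 22.3, 23.1, 24.4 and 28.8 CPM. The genotypes overlapped at both dark-phase times, and the differences of 0.13 (adjusted P = 0.812) and 0.27 (adjusted P = 0.574) did not pass the threshold.

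*Cdkn1a* was rhythmic in WT mice by the joint test of both coefficients of a 24-h cosine curve. Between the highest and lowest time-point means its level in WT BAT swung by 2.58 on the log2 scale (SE 0.62), with the high at ZT 18 and the low at ZT 6 (adjusted P = 2.04e-11). Without the sample at 143 CPM the mean log2 CPM was 5.01 at ZT 18 and 5.22 at ZT 22, so the high moved to ZT 22 and the swing was 2.24. In WT eWAT it swung by 2.60 (SE 0.25), with the high at ZT 22 and the low at ZT 10 (adjusted P = 1.37e-07). In FANKO mice the swing was 0.44 (SE 0.16) in BAT (adjusted P = 0.59) and 1.08 (SE 0.25) in eWAT (adjusted P = 0.0701). Tested directly, WT and FANKO rhythms differed in BAT (adjusted P = 1.82e-05) and in eWAT (adjusted P = 0.00268), and in both depots the WT low of the light phase was the part missing from the FANKO samples. Without the WT sample at 143 CPM the difference in BAT had an adjusted P of 6.17e-05. In eWAT the call was lost on leaving out the samples of replicate number 2 (adjusted P = 0.128) or 3 (0.11), and with library size scaling (0.0152). Calls of an eWAT rhythm difference over all genes fell from 232 to 31, 54 and 81 under these settings.

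**Figure D2:**
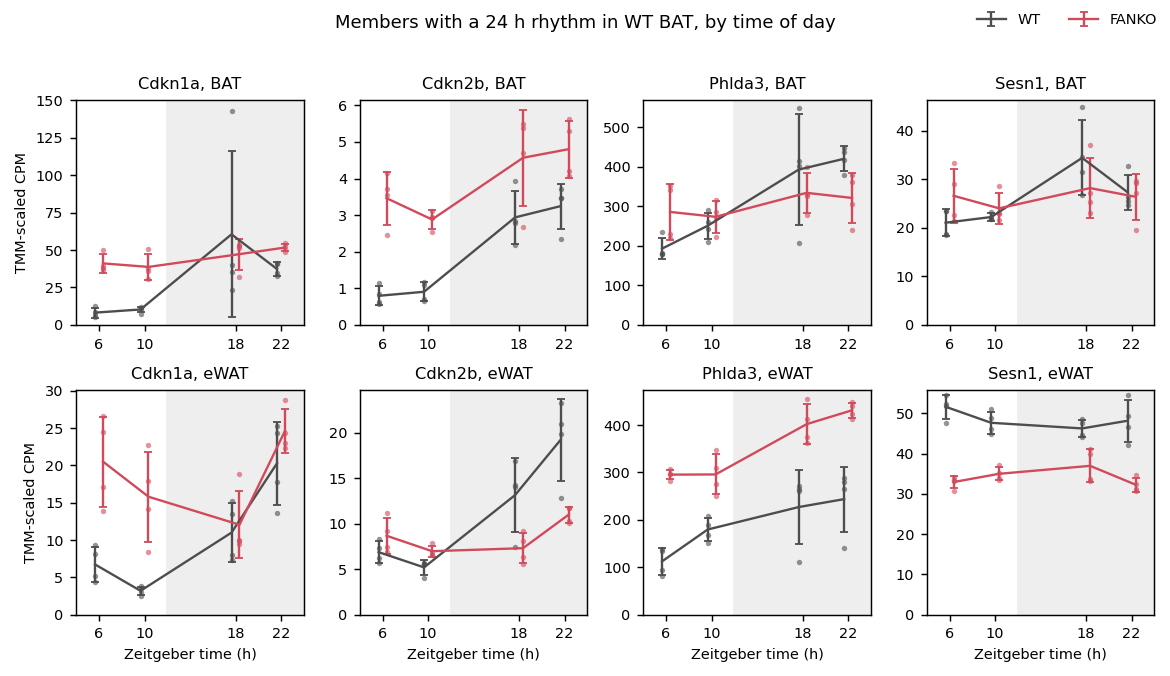
CPM of *Cdkn1a*, *Cdkn2b*, *Phlda3* and *Sesn1* at ZT 6, ZT 10, ZT 18 and ZT 22 in BAT (top) and eWAT (bottom), with a point for each of the 4 samples of a group, lines and bars for the mean ± SD and the dark phase shaded. The WT values of *Cdkn1a* lay between 5.23 and 12.6 CPM at the light-phase times in BAT and between 2.46 and 9.29 CPM in eWAT, below all FANKO values at those times.

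*Cdkn2b* encodes the kinase inhibitor p15, which lies beside *Cdkn2a* on chromosome 4 and acts on the cyclin D kinases, and it is better known as a target of TGF-beta signalling than of p53. The gene (ENSMUSG00000073802) spans chr4:89306299-89311039 on the reverse strand. At ZT 6 the WT BAT samples had 0.57, 0.62, 0.85 and 1.13 CPM and the FANKO BAT samples 2.44, 3.54, 3.72 and 4.15 CPM, and at ZT 10 they had 0.66, 0.71, 1.09 and 1.16 CPM against 2.54, 2.91, 2.95 and 3.12 CPM. All FANKO samples were higher at these times, by 2.17 (adjusted P = 3.21e-09) and 1.65 (adjusted P = 2.65e-06) on the log2 scale. At ZT 18 and ZT 22 the WT samples ranged from 2.18 to 3.92 and from 2.34 to 3.71 CPM and the FANKO samples from 2.68 to 5.49 and from 4.08 to 5.63 CPM, with differences of 0.63 (adjusted P = 0.0139) and 0.54 (adjusted P = 0.0426) that missed the threshold. Over all times *Cdkn2b* was higher in FANKO BAT by 1.25 (SE 0.13, adjusted P = 3.43e-13).

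In eWAT *Cdkn2b* differed between genotypes at the other times of day. The WT samples had 7.40, 14.02, 14.3 and 16.9 CPM at ZT 18 and 12.8, 19.8, 20.97 and 23.3 CPM at ZT 22, and the FANKO samples 5.55, 6.38, 8.15 and 9.14 CPM and 10.1, 10.3, 11.8 and 11.8 CPM. It was lower in FANKO eWAT at ZT 18 (log2 fold change -0.85, adjusted P = 0.00106), where 1 WT sample lay among the FANKO samples, and at ZT 22 (-0.81, adjusted P = 0.000995), where none did. Both calls were lost without replicate number 2 (0.0262 and 0.0228) or 3 (adjusted P = 0.0565 and 0.0159). The light-phase differences were 0.35 and 0.43 and were not called, and the mean over the day differed by -0.22 (SE 0.10, adjusted P = 0.0494). That mean was called lower without replicate number 4 (-0.32, adjusted P = 0.00513) and with library size scaling (-0.46, adjusted P = 0.000161). The same held without the 3 eWAT libraries far from their group, all of them WT (-0.29, adjusted P = 0.00751). The swing of *Cdkn2b* was 1.90 (SE 0.24) in WT BAT (adjusted P = 5.41e-10) and 1.84 (SE 0.22) in WT eWAT (adjusted P = 1.98e-11), with the high at ZT 22 in both. It was 0.70 (SE 0.13) and 0.65 (SE 0.08) in FANKO BAT and eWAT (adjusted P = 0.0316 and 0.0341). WT and FANKO rhythms differed in BAT (adjusted P = 0.00152) and in eWAT (adjusted P = 0.000318). In BAT the call was lost without replicate number 1 (0.0993), 2 (0.0281) or 3 (0.0261), without 7 libraries high in muscle markers (0.0586) and with limma-voom (0.0321), and in eWAT without replicate number 2 (0.0328) or 3 (0.0322). Over all genes the called rhythm differences in BAT fell from 559 to 192, 183 and 277 without number 1, 2 and 3. In eWAT they fell from 232 to 31 and 54 without number 2 and 3.

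*Cdkn2a* encodes the senescence marker p16 and, in another reading frame, the MDM2 inhibitor p19ARF, and counts per gene do not separate the transcripts. The gene (ENSMUSG00000044303) spans chr4:89274471-89294653 on the reverse strand. Each library held between 0 and 8 of its read pairs. The 16 WT BAT libraries held 3 in all, from 2 libraries of ZT 6, and the 16 FANKO BAT libraries held 37 in 15 libraries. The WT eWAT libraries held 45 in 14 and the FANKO eWAT libraries 60 in 14. The ratio of the summed and scaled counts of FANKO to WT was 9.06 in BAT (95% interval 2.87 to 45.95) and 1.54 in eWAT (1.03 to 2.33), intervals that cover counting error only. When no filter on low counts was applied, so that 41091 genes were tested, edgeR called the difference in BAT (adjusted P = 1.27e-05) and not that in eWAT (adjusted P = 0.297). In that fit no single time was called in either depot, and the smallest adjusted P was 0.0193, at ZT 18 in BAT.

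*Mdm2*, the ubiquitin ligase that keeps p53 low, had a higher mean level in FANKO mice in both depots. The gene (ENSMUSG00000020184) spans chr10:117688875-117710758 on the reverse strand. Its level ran from 37.8 to 49.0 CPM in WT BAT (median 42.7) and from 51.2 to 77.9 CPM in FANKO BAT (median 67.8), and from 31.5 to 44.5 CPM in WT eWAT (median 36.4) and from 43.3 to 57.7 CPM in FANKO eWAT (median 50.8). In BAT all 16 FANKO samples exceeded all 16 WT samples, and in eWAT the ranges overlapped only between 43.3 and 44.5 CPM. The log2 fold change was 0.64 (SE 0.04, adjusted P = 4.64e-21) in BAT and 0.43 (SE 0.04, adjusted P = 2.28e-13) in eWAT. It was called at all 4 times in each depot, from 0.51 to 0.79 in BAT and from 0.30 to 0.53 in eWAT. The eWAT call at ZT 18 was lost under 12 of the 17 alternative settings, among them DESeq2 (adjusted P = 0.0213), RLE factors (0.0316), no filter on low counts (0.0647), library size alone (0.569) and each replicate number left out (0.016 to 0.1). That at ZT 22 was lost under 4, and those at ZT 6 and ZT 10 with library size alone. Scaled so, the mean eWAT value fell to 0.18 (adjusted P = 0.019). *Mdm2* was rhythmic in WT eWAT with a swing of 0.29 (SE 0.07, adjusted P = 0.00356), a call that was lost without replicate number 1, 2 or 3, with library size scaling (0.391) and without the filter on low counts (0.0122).

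*Ccng1*, a strong p53 target whose cyclin G1 binds MDM2 and a protein phosphatase, moved in opposite directions in the depots. The gene (ENSMUSG00000020326) spans chr11:40748552-40755311 on the reverse strand. Its level ran from 283 to 430 CPM in WT BAT (median 344) and from 208 to 370 CPM in FANKO BAT (median 242), and from 137 to 292 CPM in WT eWAT (median 209) and from 217 to 292 CPM in FANKO eWAT (median 245). The ranges overlapped in both depots. It was lower in FANKO BAT (log2 fold change -0.47, SE 0.07, adjusted P = 1.09e-08), a direction that turned to 0.12 (adjusted P = 0.151) under library size scaling, and higher in FANKO eWAT by 0.26 (SE 0.07, adjusted P = 0.000742), or 0.03 (adjusted P = 0.743) under that scaling. Relative to the median of all genes, the library-size values were -0.47 in BAT and 0.30 in eWAT. In BAT the difference was called at ZT 6, ZT 10 and ZT 22, and in eWAT at no single time. The BAT call at ZT 22 was lost under 7 of 17 alternatives, including each of replicate numbers 2, 3 and 4 left out (adjusted P from 0.0223 to 0.0474), and that at ZT 6 under 3, including replicate number 1 left out (0.0166).

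*Bax*, which encodes the effector of apoptosis that opens the outer mitochondrial membrane, was higher in FANKO mice in both depots. The gene (ENSMUSG00000003873) spans chr7:45461697-45466898 on the reverse strand and shares 192 bases of exon with *Gm45808* on the same strand, reads of which can be assigned to neither gene with certainty. In WT BAT it ranged from 6.19 to 10.8 CPM (median 8.42) and in FANKO BAT from 13.6 to 22.3 CPM (median 18.5), with no overlap among 16 and 16 samples. In WT eWAT it ranged from 8.07 to 12.4 CPM (median 10.5) and in FANKO eWAT from 11.1 to 18.9 CPM (median 15.6), with overlap between 11.1 and 12.4 CPM. The log2 fold change was 1.13 (SE 0.06, adjusted P = 6.33e-24) in BAT, between 1.11 and 1.18 at the single times, and 0.55 (SE 0.06, adjusted P = 1.69e-11) in eWAT, between 0.45 and 0.70. All single times were called, but the eWAT call at ZT 10 was lost under 7 of 17 alternatives, among them DESeq2 (adjusted P = 0.012), RLE factors (0.0127) and replicate number 2 (0.0157) or 3 (0.361) left out. The eWAT calls at ZT 18 and ZT 22 were lost under 4 each, including replicate number 4 left out at both (0.0192 and 0.0371), number 1 at ZT 18 (0.0113) and number 3 at ZT 22 (0.0175).

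*Bbc3*, which encodes PUMA, the p53-induced protein that frees BAX from its inhibitors, went the other way. The gene (ENSMUSG00000002083) spans chr7:16308393-16318205 on the forward strand. At ZT 18 the WT BAT samples had 3.93, 5.85, 6.73 and 7.92 CPM and the FANKO BAT samples 1.88, 2.41, 2.74 and 3.38 CPM, and at ZT 22 they had 5.93, 6.75, 7.02 and 7.36 CPM and 2.72, 3.93, 4.07 and 4.52 CPM. All FANKO samples were lower at both dark-phase times (log2 fold changes -1.22, adjusted P = 0.000116, and -0.84, adjusted P = 0.00614), whereas the values at ZT 6 (-0.03) and ZT 10 (-0.46) were not called. The ZT 22 call was lost with limma-voom (adjusted P = 0.0198), with library size scaling (-0.23, 0.471), without replicate number 1, 2 or 3 (0.0222 to 0.0582) and without the libraries high in B cell markers (0.0143). The ZT 18 call was lost without replicate number 1 (0.0126) and with library size scaling (-0.57, 0.0597). Over the day it was lower in FANKO BAT (-0.63, SE 0.13, adjusted P = 1.68e-05) and in FANKO eWAT (-0.38, SE 0.12, adjusted P = 0.00626). The BAT value shrank to -0.03 (adjusted P = 0.821) with library size scaling, under which the median of all genes was 0.58, and the eWAT call was lost in a separate fit (adjusted P = 0.0106), with limma-voom (0.0499) and without replicate number 1, 2 or 3 (0.0315 to 0.089).

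*Phlda3*, the AKT-restraining p53 target, was higher in FANKO mice in eWAT and not in BAT. The gene (ENSMUSG00000041801) spans chr1:135766119-135769136 on the forward strand. At ZT 6 the WT eWAT samples had 82.0, 93.4, 135 and 139 CPM and the FANKO eWAT samples 283, 296, 297 and 307 CPM, which made it 2.63-fold higher (log2 fold change 1.40, adjusted P = 6.37e-07). Over all times WT eWAT ranged from 82.0 to 288 CPM (median 179) and FANKO eWAT from 250 to 456 CPM (median 355), and the groups did not overlap at any of the 4 times. The later times gave 0.72, 0.83 and 0.82, all called. The ZT 10 call was lost under 7 of 17 alternatives, among them RLE factors (adjusted P = 0.0106), a separate fit (0.012) and replicate number 1, 2 or 3 left out (0.0137 to 0.0563). Those at ZT 18 and ZT 22 were lost under 5 and 3, including number 1, 2 or 3 left out at ZT 18 (0.0142 to 0.0187) and 2 or 3 at ZT 22 (0.0115 and 0.0195). Without the 3 WT eWAT libraries far from their group, the ZT 18 value was 0.58 (adjusted P = 0.0901). This left 2 WT samples at ZT 18 and removed the lowest one, at 110 CPM. The mean effect was 0.93 (SE 0.11, adjusted P = 1.57e-10). In BAT the range was 178 to 549 CPM in WT (median 275) and 220 to 401 CPM in FANKO mice (median 311), and the mean difference was 0.01 (95% interval -0.20 to 0.23, adjusted P = 0.929), with 0.57 at ZT 6 (adjusted P = 0.0188) and -0.39 at ZT 22 (adjusted P = 0.114). With library size scaling the BAT value was 0.60 (adjusted P = 1.65e-06), close to the 0.58 of the median gene.

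The level of *Phlda3* in WT mice rose from the light to the dark phase, with a swing of 1.13 (SE 0.11) in BAT (adjusted P = 6.64e-05) and of 1.10 (SE 0.31) in eWAT (adjusted P = 0.00149), lowest at ZT 6 and highest at ZT 22. The swing was 0.29 (SE 0.15) in FANKO BAT (adjusted P = 0.619) and 0.55 (SE 0.11) in FANKO eWAT (adjusted P = 0.0669). The direct test of the genotypes did not pass in BAT (adjusted P = 0.13) or eWAT (adjusted P = 0.6), so a loss of the rhythm was not shown. The WT eWAT rhythm was not called without replicate number 1 (adjusted P = 0.0221), 2 (0.0601) or 3 (0.0468).

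*Eda2r*, which encodes a receptor of the tumour necrosis factor family for ectodysplasin A2 and is a p53 target, showed the largest change of the tested members in BAT. The gene (ENSMUSG00000034457) spans 97333840 to 97377216 on the reverse strand of chromosome X. Its level was 0.70 to 2.34 CPM in WT BAT (median 1.46) and 3.96 to 8.02 CPM in FANKO BAT (median 5.39), so all 16 FANKO samples exceeded all 16 WT samples. The log2 fold change was 1.94 (SE 0.12, adjusted P = 6.19e-22), and it was called each time, with 1.82 and 2.17 in the light phase and 1.75 and 2.15 in the dark phase. In eWAT the level was 3.91 to 6.49 CPM in WT (median 5.32) and 3.96 to 9.10 CPM in FANKO mice (median 6.25), with a difference of 0.25 (SE 0.10, adjusted P = 0.0305) that did not pass and none called at a single time. The FANKO BAT samples thus reached the range that eWAT had in either genotype.

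*Sesn1*, which encodes a stress-induced inhibitor of mTORC1, was lower in FANKO eWAT. The gene (ENSMUSG00000038332) spans chr10:41809935-41908424 on the forward strand. Its level was 42.2 to 54.6 CPM in WT eWAT (median 48.1) and 30.7 to 41.2 CPM in FANKO eWAT (median 33.6), with no overlap among 16 and 16 samples, and the log2 fold change was -0.50 (SE 0.06, adjusted P = 9.42e-10). In BAT it was 18.6 to 45.0 CPM in WT (median 24.1) and 19.5 to 37.2 CPM in FANKO mice (median 26.3), a mean difference of 0.02 (95% interval -0.11 to 0.15, adjusted P = 0.771) that became 0.62 (adjusted P = 1.38e-08) with library size scaling. *Sesn1* was rhythmic in WT BAT, with a swing of 0.69 (SE 0.18) from ZT 6 to ZT 18 (adjusted P = 3.16e-05, or 0.0195 and not called with library size scaling), and had a swing of 0.21 (SE 0.17) in FANKO BAT (adjusted P = 0.721). The direct test of the rhythms in BAT gave an adjusted P of 0.0562.

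**Figure D3:**
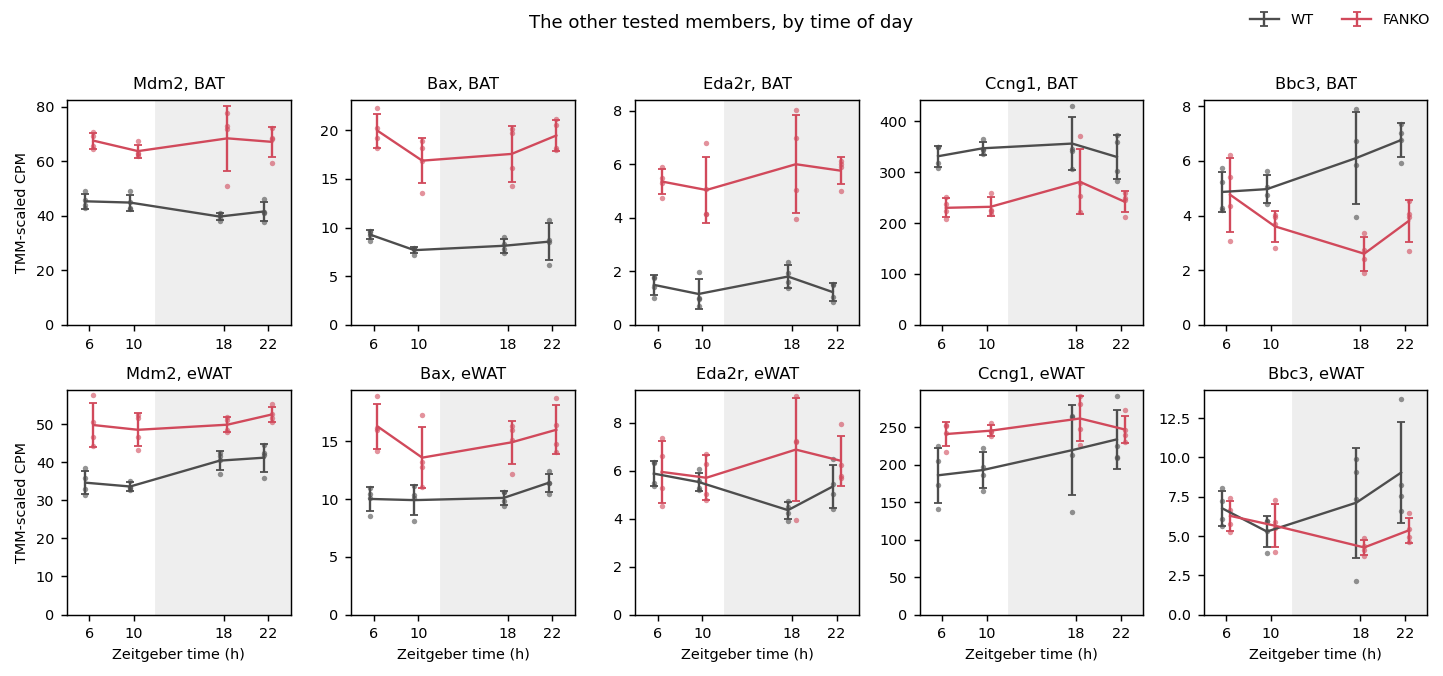
CPM of *Mdm2*, *Bax*, *Eda2r*, *Ccng1* and *Bbc3* by zeitgeber time in BAT (top) and eWAT (bottom), with a point per sample, lines and bars for the mean ± SD of 4 samples and the dark phase shaded. In BAT the FANKO values of *Mdm2* (51.2 to 77.9 CPM), *Bax* (13.6 to 22.3 CPM) and *Eda2r* (3.96 to 8.02 CPM) lay above all WT values.

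Across the samples, 3 members did not overlap between the 16 FANKO and 16 WT samples of BAT (*Mdm2*, *Bax* and *Eda2r*, where 22.6% of all genes did not overlap), and 1 in eWAT (*Sesn1*, 5.90% of all genes). The genotype effect differed between the depots in 7 of the 9 tested members (64.3% of all genes tested). It was larger or more positive in BAT for *Eda2r* (difference of the log2 fold changes 1.69, adjusted P = 1.98e-14), *Cdkn2b* (1.47, adjusted P = 5.41e-12), *Bax* (0.58, adjusted P = 4.59e-08), *Sesn1* (0.52, adjusted P = 1.09e-06) and *Mdm2* (0.21, adjusted P = 0.00103). It was more positive in eWAT for *Phlda3* (-0.92, adjusted P = 6.09e-07) and *Ccng1* (-0.74, adjusted P = 9.56e-10), which came to -0.09 and 0.09 with library size scaling, where the median of all genes was 0.88 and 7 members were called more positive in BAT and 0 in eWAT. Of the 20249 genes tested, 13674 were called more positive in BAT and 1573 in eWAT with that scaling. *Bbc3* (-0.25, 95% interval -0.60 to 0.09, adjusted P = 0.196) and *Cdkn1a* were not shown to differ. Without the samples of replicate number 2, the difference for *Mdm2* was 0.16 (adjusted P = 0.0625).

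Taken by time of day, 21 of the 36 pairs of member and time point were called in BAT and 19 of 36 in eWAT. In BAT 6 members were called at ZT 6 (48.2% of all genes), 6 at ZT 10 (45.7%), 4 at ZT 18 (44.0%) and 5 at ZT 22 (45.3%), of which 5, 5, 3 and 3 were higher in FANKO mice. That made 16 pairs higher and 5 lower in BAT, or 24 and 0 when scaled by library size. Among all genes called in BAT, 48.9% to 51% were higher at the 4 times with TMM. With library size alone that share was 85.3% to 88.1%. In eWAT 5 members were called at ZT 6 (27.0% of all genes), 5 at ZT 10 (24.5%), 4 at ZT 18 (13.6%) and 5 at ZT 22 (20.6%), of which 4, 4, 3 and 3 were higher. *Mdm2* and *Bax* were called at all 4 times in both depots, *Eda2r* at all 4 in BAT, and *Phlda3* at all 4 in eWAT. Of these the BAT calls were kept under all 17 alternatives, whereas in eWAT single calls of each gene were lost, as given above. *Cdkn1a* was called at ZT 6 and ZT 10 in each depot under every alternative, and at ZT 22 in BAT with library size scaling alone (1.08, adjusted P = 0.00437). Scaled so, 10 pairs were called in eWAT (3 higher, 7 lower, against 14 and 5 with TMM), and without replicate number 2 or 3 there were 10 and 11. Among all genes called in eWAT, 61.1% to 65.4% were higher at the 4 times with TMM and 21.1% to 28.9% with library size alone.

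**Figure D4:**
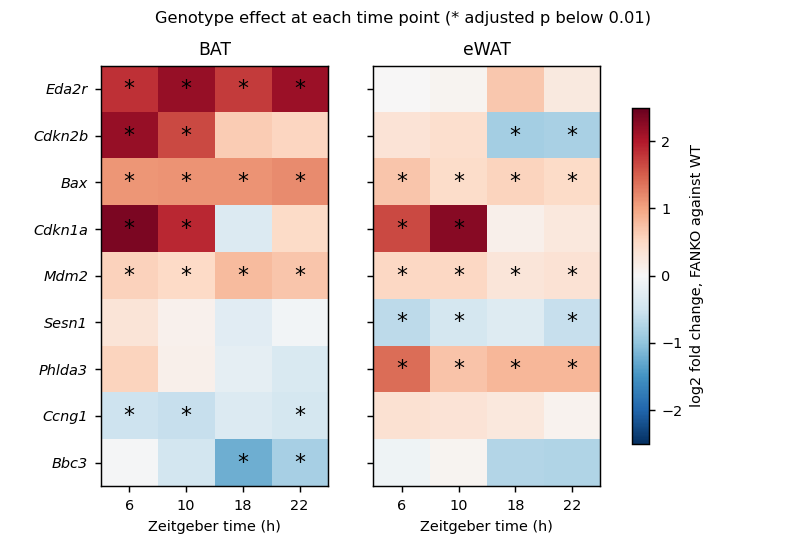
Log2 fold change of FANKO against WT mice for the 9 tested members at each zeitgeber time in BAT and eWAT, as colour from lower to higher in FANKO mice, with an asterisk where the adjusted P value was below 0.01. The *Cdkn1a* values of 2.35 and 1.89 in BAT and 1.65 and 2.28 in eWAT stood in the ZT 6 and ZT 10 columns, while *Mdm2* and *Bax* had an asterisk in every column.

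Rhythm was called in WT mice for 4 members in BAT (13.9% of all genes tested), *Cdkn1a*, *Cdkn2b*, *Phlda3* and *Sesn1*, and for 4 in eWAT (9.38%), *Cdkn1a*, *Cdkn2b*, *Phlda3* and *Mdm2*. edgeR called 0 of the 9 members in FANKO BAT (2.84% of all genes) and 0 in FANKO eWAT (6.77%), as did DESeq2 and limma-voom, with 2 and 3 members at an unadjusted P below 0.05. The genotypes differed in rhythm in 2 members in BAT (2.76% of all genes) and 2 in eWAT (1.15%), *Cdkn1a* and *Cdkn2b* in each depot. The swing between time points was smaller in FANKO mice for 7 of 9 members in each depot, with medians of 0.66 in WT and 0.27 in FANKO BAT and of 0.42 in WT and 0.27 in FANKO eWAT. The same swing was not computed over all genes, and the study reports reduced amplitudes of rhythmic genes in both FANKO depots. Library composition also varied between samples, and 7 BAT libraries (4 WT, 3 FANKO), from ZT 6, ZT 10, ZT 18 and ZT 22, had more than 100 CPM of skeletal muscle markers. Without them 7 members were still called in level in BAT (13003 of all 21391 genes then tested) and 4 in the WT BAT rhythm (1917 of 21391). The rhythm difference of *Cdkn2b* in BAT was then not called by edgeR (adjusted P = 0.0586).

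The other genes of the pathway gave a mixed picture. Of 36 further p53 targets, 18 were higher and 11 lower in FANKO BAT (median log2 fold change 0.30) and 13 higher and 5 lower in FANKO eWAT (median 0.08). Among all genes tested, 33.1% were called higher and 33.9% lower in BAT, and 27.6% and 22.8% in eWAT. Scaled by library size the split was 27 higher and 3 lower in BAT and 10 higher and 15 lower in eWAT, with medians 0.31 and 0.11 above that of all genes. Of the 20249 genes tested, 12785 were then higher and 2274 lower in BAT, and 2389 higher and 8592 lower in eWAT. The same values over all genes apply to the lists of genes that follow. *Pmaip1*, which encodes the apoptosis inducer NOXA, was higher by 4.80 in BAT (SE 0.23, adjusted P = 1.09e-27) and by 0.79 in eWAT (adjusted P = 9.06e-05), and *Ephx1*, a microsomal epoxide hydrolase, by 3.37 (SE 0.12, adjusted P = 7.15e-34) and 2.099 (SE 0.11, adjusted P = 4.92e-24). *Tnfrsf10b*, the death receptor for TRAIL, was higher by 1.28 in eWAT (adjusted P = 3.62e-20) and 1.03 in BAT (adjusted P = 4.12e-17). The lower targets included *Ak1*, adenylate kinase (-1.47, adjusted P = 8.28e-16), and the apoptosis adaptor *Siva1* (-0.90, adjusted P = 8.52e-16) in BAT, and *Ddit4* (-0.67, adjusted P = 0.00273) and *Sesn2* (-0.48, adjusted P = 1.82e-05), both inhibitors of mTORC1 signalling, in eWAT.

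**Figure D5:**
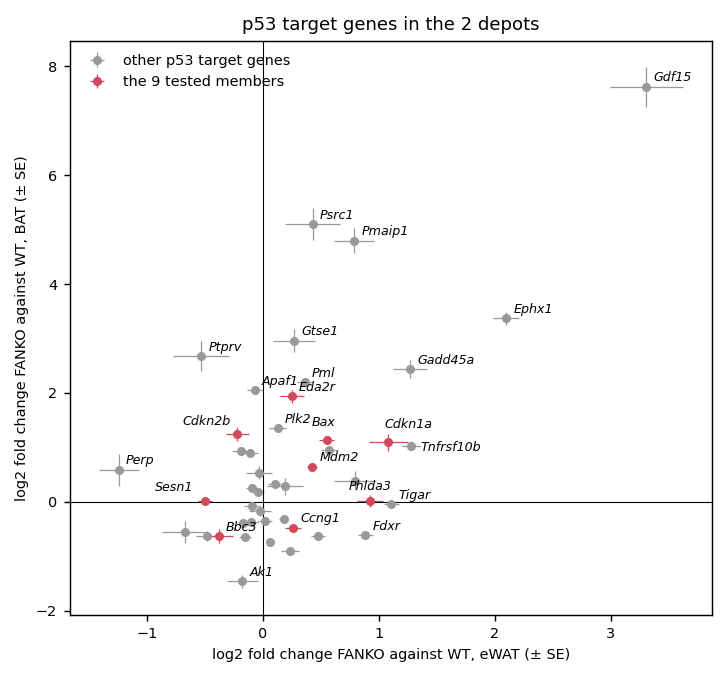
Log2 fold change of FANKO against WT mice in eWAT (horizontal) and BAT (vertical) for the 36 other p53 targets and the 9 tested members, with a point per gene. *Ephx1* (3.37 in BAT and 2.099 in eWAT) stood high in both depots and *Pmaip1* (4.80 in BAT and 0.79 in eWAT) mainly along the BAT axis. Of the targets with a mean log2 CPM below 0, *Gdf15* lay at 7.62 in BAT and 3.31 in eWAT. *Psrc1* lay at 5.10 and 0.43, and *Perp* at 0.59 and -1.24.

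Of 12 regulators of p53, 6 were higher and 2 lower in FANKO BAT (median 0.13) and 3 higher and 5 lower in FANKO eWAT (median -0.05), or 11 and 0 in BAT and 0 and 7 in eWAT with library size scaling. *Trp53*, which encodes p53 itself, was higher by 1.09 in BAT (SE 0.07, adjusted P = 4.12e-20), with medians of 6.98 CPM in WT and 15.1 CPM in FANKO mice, and by 0.22 in eWAT (SE 0.07, adjusted P = 0.00679), with medians of 11.1 and 12.6 CPM. The eWAT call of *Trp53* was lost with RLE factors (0.16, adjusted P = 0.0488), without genes of the mitochondrial genome (0.19, adjusted P = 0.0189) and with library size scaling, where the value turned to -0.03 (adjusted P = 0.717). *Mdm4*, the partner of MDM2 that masks the activation domain of p53, was lower in eWAT (-0.42, SE 0.05, adjusted P = 2.37e-10) and not called in BAT (0.09, SE 0.05, adjusted P = 0.122). The checkpoint kinase gene *Chek1* was higher in BAT (1.31, adjusted P = 6.55e-11) and eWAT (0.62, adjusted P = 0.000259), and *Prkdc*, the DNA-dependent protein kinase, was lower in both (-0.61, adjusted P = 4.03e-20, and -0.41, adjusted P = 6.06e-13). With library size scaling *Chek1* in eWAT (0.38, adjusted P = 0.036) and *Prkdc* in BAT (-0.01, adjusted P = 0.858) were no longer called.

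The remaining inhibitors of cyclin-dependent kinases and the pocket proteins did not follow *Cdkn1a*: of 7 genes, 1 was higher and 4 were lower in FANKO BAT (median -0.48), and 0 were higher and 1 was lower in FANKO eWAT (median -0.03). Scaled by library size, 3 were higher and 2 lower in BAT and 5 lower in eWAT. *Cdkn2c*, which encodes p18, was lower in BAT (-1.94, SE 0.11, adjusted P = 1.24e-24) and in eWAT (-0.69, SE 0.10, adjusted P = 2.4e-08). *Cdkn1c*, which encodes p57, was lower in BAT (-1.02, adjusted P = 5.24e-13). The pocket protein gene *Rbl1* was higher in BAT (2.19, adjusted P = 6.97e-35). Of 16 genes of the cell cycle, all 16 were higher in FANKO BAT (median 2.46), among them *Top2a* (3.98, adjusted P = 2.28e-22) and *Mki67* (3.66, adjusted P = 2.58e-22), and 3 were higher in FANKO eWAT (median 0.32), including *Aurka* (0.47, adjusted P = 0.00408) and *Mcm5* (0.47, adjusted P = 0.00109). The 3 calls in eWAT were lost with library size scaling, and the 16 in BAT were not. Transcripts of an inhibitor of division and of proliferation were therefore both higher in FANKO BAT, where the T and B cell markers given above were higher too, and the part of those cells was not tested.

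Genes whose products senescent cells are known to secrete are also products of leukocytes and fibroblasts. Of the 23 tested, 22 were higher and 0 lower in FANKO BAT (median 3.26), and 10 were higher and 5 lower in FANKO eWAT (median 0.18, or 8 higher and 6 lower with library size scaling). *Mmp12*, the macrophage elastase, was higher by 8.04 in BAT (SE 0.34, adjusted P = 4.58e-30) and 3.32 in eWAT (SE 0.22, adjusted P = 2.12e-19), *Spp1*, osteopontin, by 7.30 in BAT (SE 0.38, adjusted P = 7.97e-26) and *Ccl5*, a T cell chemokine, by 3.15 in eWAT (SE 0.26, adjusted P = 3.84e-16). The growth factor binding proteins *Igfbp5* (-1.43, adjusted P = 4.8e-17) and *Igfbp4* (-0.82, adjusted P = 2.03e-12) were lower in FANKO eWAT. In FANKO BAT most or all macrophage, T cell and fibroblast markers were higher. In FANKO eWAT 5 of 6 T cell markers were higher, 6 of 6 fibroblast markers were lower, and of 6 macrophage markers 2 were higher and 1 lower. Their part in the result was not tested.

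Among 10 other genes of the BCL2 family, 6 were higher and 3 lower in FANKO BAT (median 0.54) and 3 higher and 2 lower in FANKO eWAT (median 0.04). Scaled by library size, 8 were higher and 0 lower in BAT, and 0 were higher and 4 lower in eWAT. *Bid*, an activator of BAX, was higher by 2.26 in BAT (SE 0.09, adjusted P = 4.05e-31) and 0.42 in eWAT (adjusted P = 2.96e-06), the survival gene *Bcl2* by 1.93 in BAT (adjusted P = 9.86e-32), and *Bak1*, the close relative of *Bax*, by 0.44 in eWAT (adjusted P = 7.73e-06). *Bik* was lower in both depots (-0.61, adjusted P = 0.00192, and -0.55, adjusted P = 0.00204), *Bad* in BAT (-0.39, which turned to 0.20 with library size scaling) and *Bmf* in eWAT (-0.48). With that scaling the calls of *Bid* (0.18) and *Bak1* (0.20) in eWAT and of *Bik* in BAT (-0.03) were lost. Of 5 tested relatives of the members, 2 were higher and 2 lower in BAT and 4 lower in eWAT. *Eda*, from which the ligand of the *Eda2r* receptor is spliced, was lower in BAT (-0.40, adjusted P = 5.17e-05, which turned to 0.18, adjusted P = 0.0772, with library size scaling) and eWAT (-0.59, adjusted P = 1.84e-07), *Ccng2* in BAT (-0.72, adjusted P = 7.91e-13, not called with that scaling) and *Phlda1* in eWAT (-1.48, adjusted P = 1.64e-07), and *Sesn3* was higher in BAT (0.23, adjusted P = 0.00213).

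The members did not share one pattern over the 16 groups of depot, genotype and time. Pearson's r between their group means of log2 CPM, given as a description over 16 means without a test, was 0.84 for *Mdm2* and *Bax*, 0.77 for *Cdkn2b* and *Sesn1*, 0.70 for *Cdkn1a* and *Mdm2* and 0.68 for *Cdkn1a* and *Phlda3*, and its lowest value was -0.81 for *Ccng1* and *Eda2r*. Among all genes tested, those most like *Cdkn1a* over the same 16 means were *Nup62* (r = 0.94), *Sqle* (0.92), *Gm3608* (0.92), *Dhcr7* (0.90) and *Glrx* (0.89). The order of the *Cdkn1a* group medians in WT mice, high in the dark phase of BAT and low at ZT 10 of eWAT, spanned nonoverlapping samples between the light and dark phases of BAT, whereas ZT 6 and ZT 10 of BAT overlapped with each other, as did ZT 18 and ZT 22.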

How the data were processed

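Counts of read pairs per gene, as the authors deposited them, were used for all 64 samples. Per the labels and the methods of the study, stranded total RNA libraries depleted of ribosomal RNA were sequenced, aligned with STAR 2.5.3a to GRCm38.p5 and counted with featureCounts 1.5.3, without pooling or normalization; the strand and multi-mapping options are not given in the sources used here. The filterByExpr rule of edgeR, applied to the 16 groups (minimum count 10, minimum total 15), passed 20249 genes and removed 32387. Symbols, coordinates and exon lengths came from the GENCODE annotation of GRCm38.

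Counts were scaled by TMM and fitted with edgeR 4.0.16 in R 4.3.3 by quasi-likelihood, with 3 coefficients for each depot and genotype, a level and the cosine and sine terms of a 24-h curve, 12 in all. A second fit with 1 mean per group gave the differences at each time. Adjusted P values cover all genes tested, at the study's false discovery rate of 0.01. Swings are differences of time-point means of log2 CPM (prior count 2). Each SE is the log2 fold change divided by the square root of F. The code was tested on simulated data. No 2 replicates agreed within sampling noise (96 pairs, chi-square of at least 14.7 per gene over 5000 genes). Nothing in the labels says that samples of a group came from separate mice, so P values measure the spread between these samples.

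The members and gene lists were chosen with earlier results of these data known, and so give no independent support. Genes named beside the members were *Nampt*, *Trp53*, *Mdm4*, the up to 2 largest called increases and decreases of each list in each depot (with a mean log2 CPM of 0 or more), and the 5 genes most like *Cdkn1a*. The caption of the p53 target plot also names *Gdf15*, *Psrc1* and *Perp*, which fell below that level. Results were recomputed with RLE factors, library size alone, mitochondrial-genome genes removed, no filter, separate fits of each depot, a false discovery rate of 0.05, limma-voom (limma 3.58.1), DESeq2 1.42.0, a replicate block, and without each replicate number. The labels do not say whether equal numbers mark the same mouse in both depots. Deviations of same-numbered samples correlated by -0.133 to 0.306 across depots and -0.131 to 0.225 across genotypes (median 0.05 over 32 pairs each), so the numbers were not treated as pairs. Leaving out libraries high in muscle or B cell markers, far from their group or highest in *Cdkn1a* was chosen after seeing the data.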

Additional observations from a re-analysis of the deposited data

Results flagged for a closer look

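In 8 of 144 groups of 4 samples 1 sample stood apart from the other three by a Dixon-type gap test, which chance alone flags in about 1 of 20 groups. *Cdkn1a* was 31.8 CPM in replicate 3 of FANKO BAT at ZT 18, where the others had 51.2, 52.6 and 53.5 CPM, and 18.8 CPM in replicate 4 of FANKO eWAT at ZT 18, where the others had 9.43, 9.89 and 10.05 CPM. The WT BAT samples of *Cdkn1a* at ZT 18, which ran from 23.5 to 143 CPM, were not flagged by this test. *Cdkn2b* was 2.34 CPM in replicate 3 of WT BAT at ZT 22 (others 3.47, 3.47 and 3.71) and 4.00 CPM in replicate 1 of WT eWAT at ZT 10 (others 5.53, 5.59 and 5.64). *Mdm2* was 67.3 CPM in replicate 3 of FANKO BAT at ZT 10 (others 62.1, 62.7 and 63.0). *Phlda3* was 234 CPM in replicate 3 of WT BAT at ZT 6 (others 178, 179 and 181), and 110 CPM and 141 CPM in replicate 4 of WT eWAT at ZT 18 (others 261, 266 and 271) and at ZT 22 (others 265, 281 and 288).

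The genotype effect differed between BAT and eWAT, by the interaction in edgeR, for 7 members. The effect in BAT minus that in eWAT was 1.69 for *Eda2r*, 1.47 for *Cdkn2b*, 0.58 for *Bax*, 0.52 for *Sesn1*, 0.21 for *Mdm2*, -0.74 for *Ccng1* and -0.92 for *Phlda3* on the log2 scale. The daily rhythm differed between genotypes for *Cdkn1a* (adjusted P = 1.82e-05 in BAT and 0.00268 in eWAT by edgeR) and *Cdkn2b* (adjusted P = 0.00152 and 0.000318).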

How the results depend on the processing

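Of 208 counts of members under the alternatives, 191 stayed within 1.5 times the main value and 17 moved, and of 288 fold changes of the daily mean level of single members 268 kept their direction and call, 9 lost the call, 5 gained it and 6 changed sign. Calls at single times moved more: of 1224 outcomes (72 pairs of member and time under 17 alternatives) 75 lost the call and 45 gained it, with 56 of the losses in eWAT. At a false discovery rate of 0.05, 1 member was rhythmic in FANKO BAT and 1 in FANKO eWAT. With library size alone 1 member differed in rhythm between genotypes in eWAT and 10 pairs of member and time point were called in eWAT (8 of them shared with TMM). The rhythm difference in BAT counted 1 member with limma-voom and 1 without the BAT libraries high in muscle markers. Leaving out each replicate number gave 2 to 5 members rhythmic in WT eWAT, 0 to 1 in FANKO eWAT, 1 to 3 with a rhythm difference in BAT, 0 to 2 in eWAT, and 10 to 16 called pairs in eWAT. Over all genes the same omissions gave 768 to 1955 rhythmic genes in WT eWAT (1899 with all samples) and 633 to 1065 in FANKO eWAT (1370). Rhythm differences over all genes numbered 183 to 403 in BAT (559) and 31 to 277 in eWAT (232). The sign changed for *Ccng1* in BAT with library size alone (0.12), for *Phlda3* in BAT without mitochondrial-genome genes (-0.0058), without single replicate numbers (-0.027 to 0.055) and without the WT BAT ZT 18 library highest in *Cdkn1a* (-0.042), and for *Sesn1* in BAT without single replicate numbers (-0.018 to 0.081) and without the libraries high in B cell markers (-0.022). The cause of these changes was not tested.

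With the replicate block 7 members were called in level in BAT and 7 in eWAT, 4 and 4 in WT rhythm, and 21 and 19 pairs of member and time point, so it changed no count. *Cdkn2a*, at 0 to 8 read pairs per library, is limited by depth.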
